A study of Mus musculus with 29 samples.

Results

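Serpins are a family of proteins that share 1 fold, and most of them inhibit serine or cysteine proteases. A serpin offers its target protease an exposed stretch, the reactive centre loop, as bait. When the protease cuts the loop, the serpin changes shape and traps the enzyme in a dead complex, so the sequence of the loop largely sets which protease is caught. Clade A members such as alpha1-antitrypsin are mostly secreted and belong largely to the plasma, clade B members act mostly inside cells against proteases of leukocytes and lysosomes, and a few members of other clades inhibit no protease at all. In colitis, neutrophils, macrophages and cytotoxic lymphocytes bring such proteases into the gut wall.

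The serpin genes were taken from a table of raw read counts by name and biotype: protein-coding genes whose symbol is Serpin, a clade letter from a to i and a digit. There were 61 such genes among the 54532 mouse genes of the table. Clade A held 24 and clade B 26 of them, clade E held 3, clades F and I held 2 each, and clades C, D, G and H held 1 each. The choice used no measured value. Of the 61 genes, 29 reached a mean of at least 3 counts over all mice and were tested, 32 fell below that limit, and 9 of those 32 had no count in any mouse. The tested serpins comprised 11 of clade A, 10 of clade B, both of clade F, 2 of clade E and 1 each of clades C, G, H and I, and none of clade D.

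The counts came from RNA sequencing of whole colon segments of 29 mice in 9 groups. The groups labelled Balb/C were untreated wild-type controls (3 mice), mice given dextran sulfate sodium (DSS) at 3% in drinking water for 5 days and killed at day 10 (3 mice), mice given 3 mg of the hapten DNBS rectally in 50% ethanol (3 mice), and mice given antibody to block IL-10 signalling and killed after 4 weeks or earlier with colitis (4 mice). The sample labels call the antibody an IL10 blocking antibody, the treatment text names the IL-10 receptor, and the study's methods describe Il10-/- mice, so this group is called IL-10 deficiency here only as a name. The groups labelled Balb/C Rag2-/- were untreated controls (3 mice) and, with a further deletion of Tbx21, TRUC mice, which develop colitis spontaneously (4 mice). Both lack mature T and B cells, so the TRUC comparison is between lymphocyte-deficient mice. The groups labelled C57BL/6 Rag1-/-, which also lack their own T and B cells, were untreated controls (3 mice), mice that received naive CD4+ T cells and were killed after 6 to 8 weeks (T cell transfer, TCT, 3 mice), and mice given 50 µg of activating antibody to CD40 and killed after 7 days (anti-CD40, 3 mice). The recipients of T cells are Rag1-/- in the genotype labels but Rag2-/- in the treatment text. Ages and sexes were not used here, and nothing in the labels says which mice shared a cage, a litter or a day of processing, so p-values measure only the spread between these mice.

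The comparisons set every model against the control its labels give: TRUC with Rag2-/- controls, DSS, DNBS and IL-10 deficiency with the wild-type controls, and TCT and anti-CD40 with the controls labelled Rag1-/-. Comparisons that use the same controls are not independent of each other. Levels are CPM, counts scaled to the TMM library size of each mouse, and levels of different genes are compared only per kilobase of exon. A change is a log2 fold change of model over control with its standard error (SE) from edgeR's quasi-likelihood test, and a gene was called when its Benjamini-Hochberg adjusted p over all 18616 genes tested was under 0.05. Total counts ran from 10725564 to 14977094 per mouse, at which 3 counts correspond to 0.179 to 0.313 CPM.

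The libraries did not all match their labels. H2-Ea-ps, a class II gene that BALB/c mice transcribe and C57BL/6 mice do not, stood at 67.7 to 317 CPM in all 13 libraries of the Rag2-/- control, TRUC, Rag1-/- control and anti-CD40 groups, and at 0.104 CPM or less in all 16 libraries of the wild-type control, DSS, DNBS, IL-10 deficiency and TCT groups. This goes against the strain labels of the wild-type, DSS, DNBS, IL-10, Rag1-/- control and anti-CD40 groups, and it separates the TCT libraries from their labelled controls. Unlike the labels, the study's methods name C57BL/6 mice for DSS and list wild-type mice as C57BL/6. Rag1 stood at 1.85 to 2.88 CPM in the TCT libraries and at 0.294 CPM or less in every other library, and Rag2 stood at 0 in TCT and at 0.442 to 1.72 CPM in the libraries labelled Rag1-/- control. Tbx21, deleted in TRUC per the labels, had 2.12 to 4.62 CPM in the TRUC libraries against 0.0765 to 0.528 CPM in the Rag2-/- controls, and Rag2 had 5.13 to 6.93 CPM against 1.13 to 2.21 CPM. Il10 had 5.23 to 11.5 CPM in the IL-10 group against 0.0762 to 0.266 CPM in the wild-type controls. Counts per gene do not show whether the deleted part of a gene was read. Because of the mismatch, a second set of controls was used for both models labelled Rag1-/-, wild-type mice for TCT and Rag2-/- mice for anti-CD40, and the values are given after the recurrent serpins and beside the genes whose call changed. The gene H2-Ea-ps was picked after its values were seen. By the labels, the 13 libraries with its transcripts are those of lymphocyte-deficient mice that received no T cells. A split of the libraries by H2-Ea-ps therefore cannot tell strain from lymphocyte content.

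Over the 6 comparisons, most serpins that changed were higher in the colitis model. Of the 174 pairs of a tested serpin and a comparison, 63 were called higher and 10 lower. In TRUC 10 of 29 serpins were called higher and 1 lower, where 22.4% of all genes tested were called higher and 23.4% lower. In DSS 12 were higher and 1 lower, against 17.7% and 16.3% of all genes. In DNBS 6 were higher and none lower by edgeR, against 3.95% and 2.21% of all genes, and at an unadjusted p under 0.05 the DNBS counts were 10 and 2, while DESeq2 called 4 higher and none lower. The DNBS count rests on few mice: it fell to 1 to 3 when any wild-type mouse or DNBS mouse 14 or 16 was left out. With IL-10 deficiency 13 were higher and 4 lower (27.2% and 26.1% of all genes), in TCT 14 and 3 (16.1% and 14%), and in anti-CD40 8 and 1 (10.9% and 10.7%). As shares of the 29 tested serpins, 34.5%, 41.4%, 20.7%, 44.8%, 48.3% and 27.6% were higher in TRUC, DSS, DNBS, IL-10 deficiency, TCT and anti-CD40.

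The share of serpins called lower, from 0 to 13.8%, was under the share of all genes in every comparison. The genes called lower were Serpina9 in 5 comparisons, Serpine2, Serpinf1 and Serpinh1 in IL-10 deficiency, and Serpina3k and Serpinb1c in TCT. The median log2 fold change of the 29 serpins was 0.64 for TRUC, 0.76 for DSS, 0.44 for DNBS, 0.79 for the IL-10 group, 1.23 for TCT and -0.13 for anti-CD40, where the medians over all genes lay between -0.03 and 0.02. With genes of 0 counts in 1 group set to their bound, these medians became 0.64, 0.88, 0.44, 0.75, 0.94 and -0.17. Not every serpin passed the count limit on its own level in the controls: 7 of the 29, Serpina3f, Serpina3i, Serpina3m, Serpina10, Serpinb2, Serpinb3a and Serpinb11, had a mean under 3 counts over the 9 control libraries and passed through the model mice in which they were high. The counts and medians, those of clade A and of the recurrent genes included, describe the tested genes and are no evidence for the family as a whole.

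**Figure D1:**
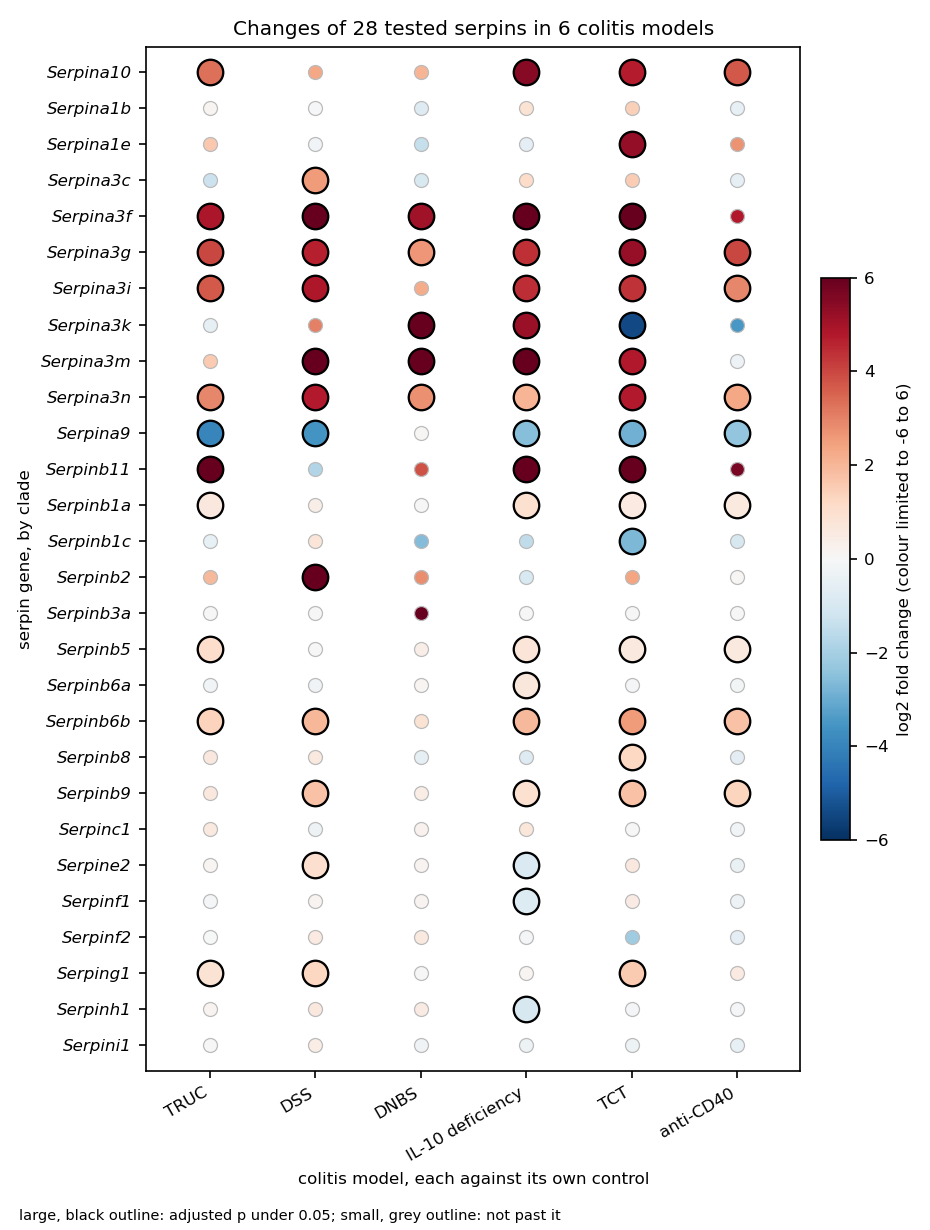
Log2 fold change of 28 tested serpins (rows, ordered by clade) in the 6 model comparisons (columns), as circles coloured from lower (blue) to higher (red) within limits of -6 and 6, large with a black outline where the adjusted p passed 0.05. Serpina3g and Serpina3n were higher in all 6 columns, and Serpina9 was lower in all but DNBS.

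No test of a difference between clades was run. Clade A had 5, 6, 5, 7, 7 and 4 of its 11 tested genes higher in TRUC, DSS, DNBS, IL-10 deficiency, TCT and anti-CD40. Clade B had 4, 3, 0, 6, 6 and 4 of its 10 tested genes higher in the same order, and its single lower call was Serpinb1c in TCT. The clade B count of 0 in DNBS is by edgeR, and at an unadjusted p under 0.05 it was 3 higher and 1 lower. Groups did not overlap mouse by mouse for 10 higher and 1 lower serpin in TRUC, 12 and 1 in DSS, 5 and 0 in DNBS, 11 and 3 in IL-10 deficiency, 14 and 3 in TCT and 8 and 1 in anti-CD40, all among the called genes. Of all genes tested, 21.9% and 22.3% were called higher and lower without overlap in TRUC, 16.7% and 15.9% in DSS, 3.69% and 2.18% in DNBS, 24.5% and 24.1% in IL-10 deficiency, 15% and 13.4% in TCT and 10.5% and 10.2% in anti-CD40.

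The members called in the same direction in at least 5 of the 6 comparisons were Serpina3g, Serpina3n, Serpina3f, Serpina3i and Serpinb6b, all higher, and Serpina9, lower. The first 4 belong to the Serpina3 cluster on chromosome 12, in which mice carry many copies where humans carry the single gene of alpha1-antichymotrypsin. The cluster had 10 members in the table, of which 7 were tested. The copies resemble each other in most of their sequence but differ in the reactive centre loop. The loops of the tested members other than Serpina3c are therefore shown here, with those of Serpina9 and of Serpinb6b and its neighbour Serpinb6a. The sequences are coding-strand DNA of the C57BL/6J reference (GENCODE M21, GRCm38), each within 1 exon, with the centre of the loop in capitals and the hinge before it and the anchor after it in lower case.
Serpina3n: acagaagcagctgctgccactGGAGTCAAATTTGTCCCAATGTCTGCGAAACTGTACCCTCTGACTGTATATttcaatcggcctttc
Serpina3g: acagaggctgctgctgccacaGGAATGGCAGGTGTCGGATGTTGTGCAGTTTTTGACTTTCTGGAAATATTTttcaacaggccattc
Serpina3f: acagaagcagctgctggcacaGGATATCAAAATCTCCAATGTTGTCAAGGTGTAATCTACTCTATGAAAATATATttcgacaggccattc
Serpina3i: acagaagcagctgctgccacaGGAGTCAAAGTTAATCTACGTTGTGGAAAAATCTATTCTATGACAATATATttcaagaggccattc
Serpina3m: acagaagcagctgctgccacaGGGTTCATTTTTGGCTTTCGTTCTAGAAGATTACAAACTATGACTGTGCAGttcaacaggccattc
Serpina3k: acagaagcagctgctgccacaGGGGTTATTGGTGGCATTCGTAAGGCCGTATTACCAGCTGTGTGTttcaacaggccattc
Serpina9: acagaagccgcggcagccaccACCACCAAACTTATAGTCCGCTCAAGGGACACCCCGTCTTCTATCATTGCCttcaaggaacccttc
Serpinb6b: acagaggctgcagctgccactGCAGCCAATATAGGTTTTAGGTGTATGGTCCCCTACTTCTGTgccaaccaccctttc
Serpinb6a: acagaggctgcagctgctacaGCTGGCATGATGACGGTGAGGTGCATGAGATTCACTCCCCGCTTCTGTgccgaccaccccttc

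These loops lie on the plus strand at chr12:104413451-104413537 (Serpina3n), chr12:104241075-104241161 (Serpina3g), chr12:104220248-104220337 (Serpina3f), chr12:104268483-104268569 (Serpina3i), chr12:104393772-104393858 (Serpina3m), chr12:104345272-104345352 (Serpina3k) and chr13:32978210-32978287 (Serpinb6b), and on the minus strand at chr12:103997066-103997152 (Serpina9) and chr13:33918107-33918190 (Serpinb6a). The centres of Serpina3n, Serpina3g, Serpina3i and Serpina3m are 51 bases long and differ from each other at 18 to 33 of them, with Serpina3n and Serpina3i closest and Serpina3g and Serpina3m farthest apart. The hinge and anchor around them, 36 bases in all, differ at 1 to 6 positions in the same pairs, and are identical between Serpina3m and Serpina3k. The centre is 54 bases in Serpina3f, 45 in Serpina3k and 42 in Serpina3c, whose loop is not shown. Reads from such copies can be assigned to the wrong gene: the share of 50-base windows of the exons that also occurs elsewhere in the transcripts was 6.9% for Serpina3n, 15.5% for Serpina3g, 10.6% for Serpina3f, 15.9% for Serpina3i, 19.1% for Serpina3m and 14.04% for Serpina3k, so part of each of their values is uncertain between paralogues. Serpina3k also lies wholly within the annotated span of Serpina3m, on the same strand.

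Serpina3n, whose product inhibits granzyme B and neutrophil cathepsin G and elastase, was higher in all 6 models. Its level was 24.2, 19.97 and 18.7 CPM in the wild-type controls, 353, 420.5 and 955 CPM in DSS, 81.9, 234 and 101 CPM in DNBS, and 92.8, 94.5, 103 and 51.6 CPM in IL-10 deficiency. The Rag2-/- controls had 8.32, 6.27 and 12.9 CPM and the TRUC mice 78.8, 69.3, 76.4 and 58.5 CPM. The libraries labelled Rag1-/- control had 5.43, 8.83 and 7.83 CPM, TCT 117, 209.9 and 266 CPM and anti-CD40 24.9, 37.2 and 46.97 CPM. In every comparison the lowest mouse of the model lay above the highest control. The log2 fold change was 4.78 (SE 0.45, adjusted p = 2.77e-07) in DSS and 4.74 (SE 0.46, adjusted p = 3.70e-08) in TCT, and between 2.03 and 2.94 in the other 4 models (largest adjusted p = 6.16e-04). Against the wild-type controls the TCT change was smaller, at 3.24. Without DNBS mouse 14 the DNBS change was 2.13. The size of the change differed between the 6 models (adjusted p = 1.62e-06 by the F test that the 6 contrasts are equal, which called 60.5% of all genes).

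Serpina3g, which encodes an intracellular inhibitor of lysosomal cathepsins, was also higher in all 6 models. Its level was 3.503, 2.60 and 3.69 CPM in the wild-type controls, 31.6, 15.03 and 199.9 CPM in DSS, 9.43, 6.97 and 45.8 CPM in DNBS, and 64.9, 68.2, 76.4 and 57.9 CPM in IL-10 deficiency. Rag2-/- controls had 1.95, 1.38 and 5.28 CPM and the TRUC mice 45.02, 63.7, 53.6 and 27.3 CPM. The libraries labelled Rag1-/- control had 1.94, 3.17 and 1.89 CPM, TCT 74.2, 69.96 and 120.4 CPM and anti-CD40 38.6, 51.2 and 24.6 CPM. No model mouse overlapped its controls, and DSS mouse 8 and DNBS mouse 16 stood far above the other mice of their groups. The log2 fold changes were 4.03 for TRUC, 4.66 for DSS, 2.66 for DNBS, 4.36 for the IL-10 group, 5.22 for TCT and 4.01 for anti-CD40, each with an SE of 0.76 to 0.82 (largest adjusted p = 0.0377, in DNBS). Without DNBS mouse 16 the DNBS change was 1.35 (adjusted p = 0.382), and without DSS mouse 8 the DSS change was 2.85 (adjusted p = 0.00172). In the annotation the longest open reading frame of Serpina3g had 248 residues, against 418 for Serpina3n.

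Serpina3f, the gene next to Serpina3g, was near 0 in all controls. The wild-type controls had 0.0762, 0 and 0.410 CPM, DSS 4.53, 1.91 and 70.8 CPM, DNBS 1.55, 0.232 and 14.8 CPM, and IL-10 deficiency 21.6, 23.5, 26.3 and 22.7 CPM. For the Rag2-/- controls it was 0.0885, 0.0765 and 0.226 CPM against 3.46, 4.71, 6.68 and 2.03 CPM in TRUC. The libraries labelled Rag1-/- control had 0, 0.0736 and 0.172 CPM against 18.8, 28.4 and 52.0 CPM in TCT and 2.72, 2.06 and 2.73 CPM in anti-CD40. Only DNBS mouse 14 fell inside the range of its controls. The IL-10 change was 7.20 (SE 1.38, adjusted p = 1.73e-04) and the DSS change 7.32 (SE 1.41, adjusted p = 3.79e-04), which became 4.34 (adjusted p = 0.0118) without DSS mouse 8. Against controls of at most 3 counts per library, ratios were taken from pooled counts over pooled library sizes. The ratio was 31.03 in TRUC (exact counting interval 13.1 to 96.6) and 408 in TCT (139 to 1983). In DNBS the change of 5.08 (adjusted p = 0.04003) became 2.58 (adjusted p = 0.460) without mouse 16, and in anti-CD40 the change of 4.80 had an adjusted p of 0.0542, although all 3 mice lay above all 3 controls.

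Serpina3i moved in the same direction at a lower level. It was at 0 to 0.164 CPM in the wild-type controls, 1.38, 1.23 and 4.79 CPM in DSS and 1.94, 1.45, 1.46 and 2.51 CPM in IL-10 deficiency. It was at 0 to 0.0885 CPM in the Rag2-/- controls and 0.811, 1.07, 0.916 and 0.407 CPM in TRUC, and at 0 to 0.0860 CPM in the libraries labelled Rag1-/- control, 0.960, 1.11 and 1.76 CPM in TCT and 0.657, 0.428 and 0.359 CPM in anti-CD40. The ratios of pooled counts over pooled library sizes were 31.3 (10.4 to 154) for DSS and 24.6 (8.10 to 122) for IL-10 deficiency. They were 14.9 (3.85 to 127) for TRUC, 23.8 (6.19 to 203) for TCT and 8.80 (2.09 to 78.5) for anti-CD40. The adjusted p by edgeR in these 5 comparisons ran from 1.52e-05 to 0.0199. DNBS mice had 0.298, 0.387 and 0.511 CPM, again above all controls, with a change of 2.24 that missed the threshold (adjusted p = 0.0996). Without DSS mouse 8 the DSS log2 fold change of 4.85 was 3.96. The anti-CD40 call was lost when anti-CD40 mouse 6 or 7 or control mouse 3 was left out (change 2.37 to 3.31 over all mice left out, largest adjusted p = 0.0967).

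Serpinb6b, a clade B serpin, shifted less but as regularly. It was at 2.67, 3.19 and 2.79 CPM in the wild-type controls, 6.98, 5.94 and 22.3 CPM in DSS, 3.88, 4.80 and 7.25 CPM in DNBS and 11.1, 9.76, 14.5 and 9.82 CPM in IL-10 deficiency. In Rag2-/- controls it was 1.24, 3.14 and 2.64 CPM and TRUC 6.34, 5.25, 7.23 and 5.94 CPM. The libraries labelled Rag1-/- control had 1.78, 1.99 and 1.03 CPM, TCT 11.9, 7.09 and 9.35 CPM and anti-CD40 4.69, 7.03 and 4.52 CPM. Every model mouse, those of DNBS included, lay above its controls. The changes were 1.39 (SE 0.39) in TRUC, 2.01 (SE 0.40) in DSS, 1.97 (SE 0.38) in the IL-10 group, 2.54 (SE 0.42) for TCT and 1.74 (SE 0.42) for anti-CD40, with adjusted p of 0.00543 or less. Without DSS mouse 8 the DSS change was 1.16 (adjusted p = 0.0117). The change was 0.87 (SE 0.40, adjusted p = 0.179) in DNBS. Its close relative Serpinb6a, an abundant intracellular inhibitor, was called in IL-10 deficiency alone, at 422, 438, 436 and 633 CPM against 304, 292 and 314 CPM (change 0.67, SE 0.13, adjusted p = 2.05e-04). Of the exon windows of Serpinb6a 25.1% occur elsewhere in the transcripts, among them in the overlapping gene Nqo2.

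Serpina9, known in humans as centerin and for its expression in germinal centre B cells, was the only serpin called lower in more than 1 comparison. It was at 3.73, 4.33 and 4.67 CPM in the wild-type controls, 0.692, 0.273 and 0 CPM in DSS, 6.98, 4.26 and 1.96 CPM in DNBS and 1.01, 1.14, 0.686 and 0 CPM in IL-10 deficiency. The Rag2-/- controls had 4.60, 6.19 and 6.04 CPM and TRUC 0.221, 0.0889, 0.366 and 0.732 CPM. The libraries labelled Rag1-/- control had 7.78, 5.52 and 6.19 CPM, TCT 0.960, 1.03 and 0.648 CPM and anti-CD40 1.22, 0.685 and 1.79 CPM. All mice of the 5 models lay below all their controls, while the DNBS mice lay on both sides of theirs. The gene fell by 3.95 on the log2 scale in TRUC (SE 0.60, adjusted p = 2.28e-05), by 3.60 in DSS, by 2.54 in the IL-10 group, by 2.87 with TCT and by 2.37 with anti-CD40 (largest adjusted p = 0.00501). The 5 B cell markers summed to 67.5 to 112 CPM in the wild-type controls and to 0.918 to 1.24 CPM in the Rag2-/- controls. In the libraries labelled Rag1-/- control they summed to 0.810 to 1.05 CPM. Of these markers 4 were called higher in DSS and 1 in TCT, against 17.7% and 16.1% of all genes. None of the 5 markers was called lower in any model. Their part in the Serpina9 values was not tested. In whole tissue, fewer cells of a type and less RNA per cell cannot be told apart.

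**Figure D2:**
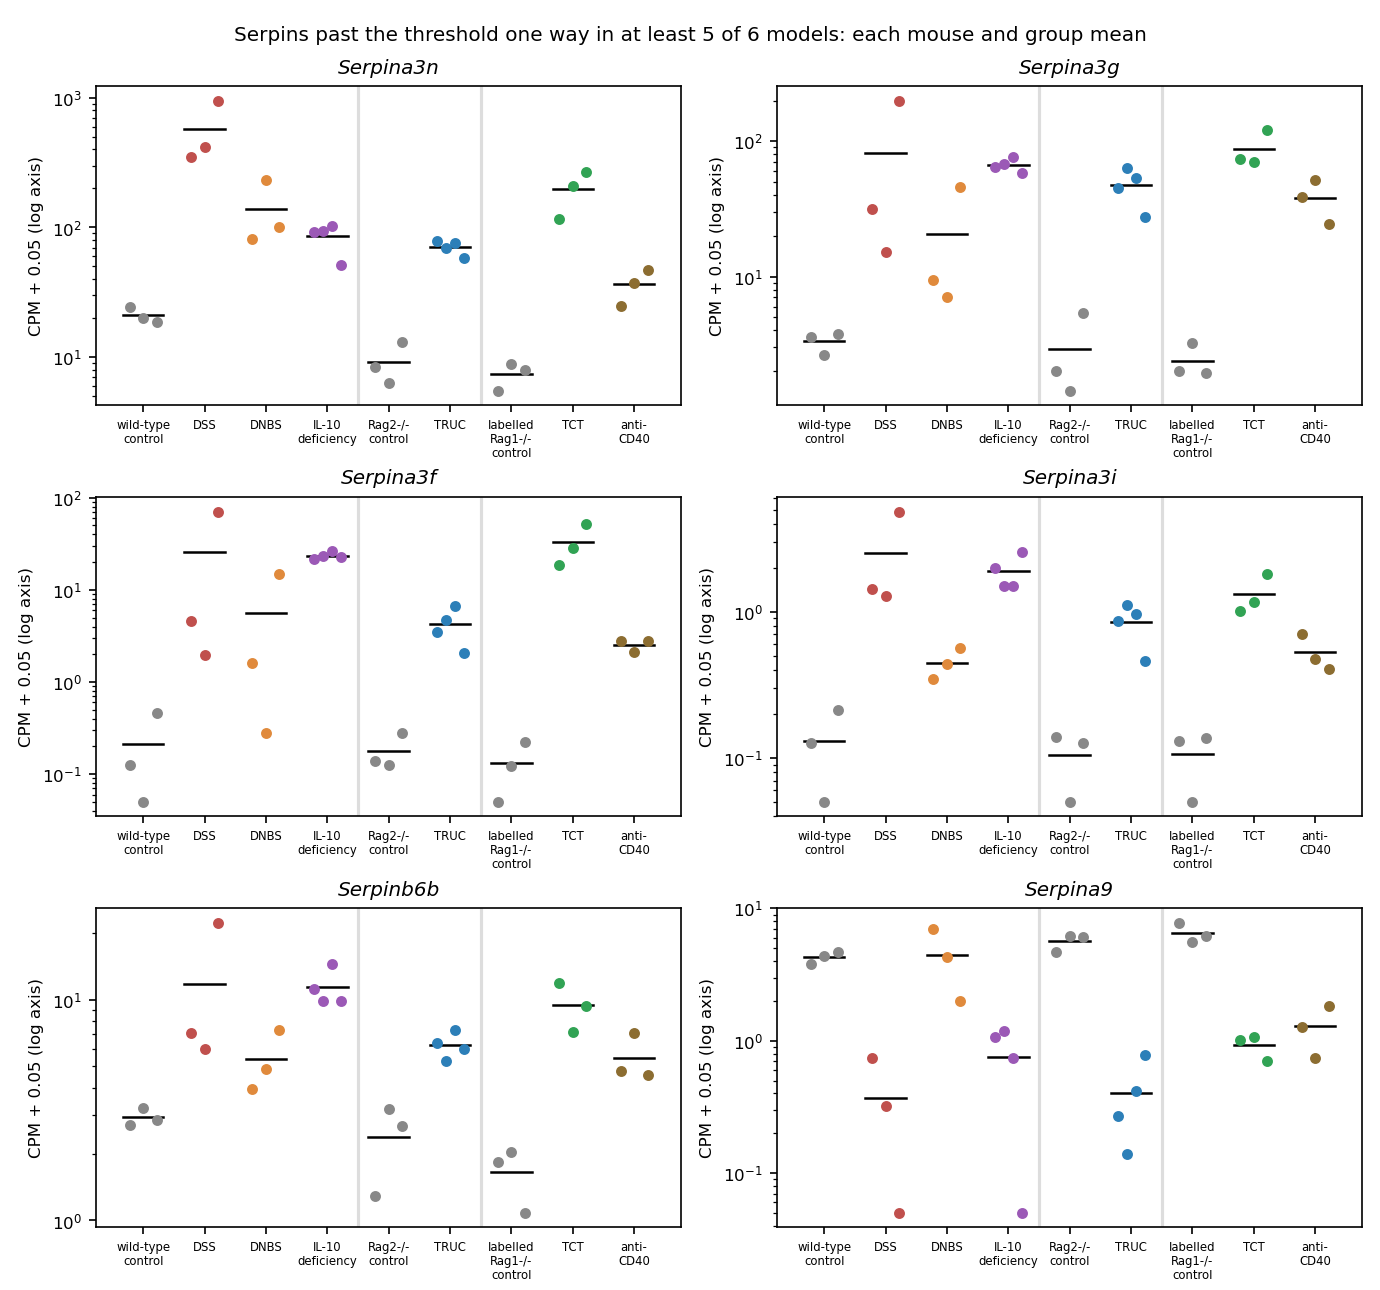
CPM of the 6 recurrent serpins in each mouse on a log axis, by group, with the controls of each set before its models, the axis at CPM plus 0.05 and lines at group means. Points of Serpina3n and Serpina3g lie above their controls in all 6 models, and points of Serpina9 lie below them in all models but DNBS.

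Of the 14 higher calls in TCT, 12 were also made against the wild-type controls. Of the 3 lower calls only 1, that of Serpina9, was also made, and those of Serpina3k and Serpinb1c were not. The changes were 4.76 for Serpina3g, 7.69 for Serpina3f, 3.92 for Serpina3i, 1.71 for Serpinb6b, 5.67 for Serpina10 and 1.19 for Serpinb9, and -2.26 for Serpina9 (largest adjusted p = 0.00844). Gained calls were Serpina1b, Serpina3c (2.03, adjusted p = 0.0251) and, lower, Serpinh1 (-0.82, adjusted p = 0.0158). Of the 8 higher calls in anti-CD40, 5 were also made against the Rag2-/- controls, at 1.99 for Serpina3n, 3.71 for Serpina3g, 2.93 for Serpina3i, 4.85 for Serpina10 and 1.195 for Serpinb6b (largest adjusted p = 0.0347). Serpina9 was again lower, at -2.16 (adjusted p = 0.00835), and the gained call was Serpinf1, lower (-0.74, adjusted p = 0.0182).

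The stretches upstream of the annotated starts of Serpina3g, Serpina3f and Serpina3i are shown because these neighbouring genes moved together. They are 250 bases each from RefSeq (GRCm38.p6, plus strand), at chr12:104235897-104236146, chr12:104214294-104214543 and chr12:104262872-104263121, with matches to TTCNNNGAA, the palindromic letters that STAT factors are known to bind, in capitals. Both strands were searched.
Serpina3g: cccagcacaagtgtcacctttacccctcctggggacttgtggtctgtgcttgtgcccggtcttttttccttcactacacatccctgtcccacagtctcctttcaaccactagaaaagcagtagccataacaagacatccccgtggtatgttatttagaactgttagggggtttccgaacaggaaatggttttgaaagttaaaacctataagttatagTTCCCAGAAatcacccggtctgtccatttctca
Serpina3f: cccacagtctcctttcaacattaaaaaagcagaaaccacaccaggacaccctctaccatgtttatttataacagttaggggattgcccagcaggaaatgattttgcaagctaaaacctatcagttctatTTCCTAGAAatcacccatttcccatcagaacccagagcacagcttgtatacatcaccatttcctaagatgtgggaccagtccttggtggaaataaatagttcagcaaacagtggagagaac
Serpina3i: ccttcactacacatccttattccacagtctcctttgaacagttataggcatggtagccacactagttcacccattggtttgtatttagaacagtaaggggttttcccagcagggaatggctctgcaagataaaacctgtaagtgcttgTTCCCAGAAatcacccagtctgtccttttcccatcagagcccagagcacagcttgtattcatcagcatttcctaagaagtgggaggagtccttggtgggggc

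The matches began 33, 121 and 102 bases before the annotated start of Serpina3g, Serpina3f and Serpina3i. Of all 32851 promoter entries 7.02% held TTCNNNGAA in the same 250 bases, and 10 of the 61 entries of serpins did. Serpina11 and Serpina3f were each counted with overlapping entries that held the same match. The matches of Serpina3g, Serpina3f and Serpina3i lie in similar sequence, so the serpin entries are not independent of each other. The interferon-response string GAAA, any 2 bases and GAAA again, which may overlap the first motif, was in 2.98% of all entries and in 2 serpin entries, those of Serpinb6a and Serpinb9. The upstream stretches of Serpina3n and Serpinb6b held neither string, and Serpina9 had no entry. A match is a description of the letters, and no match says only that these letters are not in this window. Entries were found for 52 of the 61 serpins.

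The other tested members of the cluster, Serpina3m, Serpina3k and Serpina3c, changed in fewer models. Serpina3m was at 0 in all 3 wild-type controls and at 9.75, 11.6 and 29.2 CPM in DSS, 0.418, 4.03 and 0.511 CPM in DNBS and 2.61, 0.935, 0.429 and 0.940 CPM in IL-10 deficiency. Against a floor of 3 counts per library it was at least 75.1-fold higher in DSS (adjusted p = 2.44e-05), at least 7.36-fold higher in DNBS (adjusted p = 0.0207) and at least 5.47-fold higher in IL-10 deficiency (adjusted p = 0.00349). In TCT it was 1.57, 4.53 and 3.43 CPM against 0, 0.294 and 0 CPM (adjusted p = 0.00306), and it was not called in TRUC or anti-CD40. Without DNBS mouse 14, the mouse with 4.03 CPM, or without any 1 wild-type mouse, the DNBS call was lost (change 5.56 to 7.83, largest adjusted p = 0.153). Serpina3c was called in DSS, at 1.95, 1.91 and 3.68 CPM against 0.685, 0.399 and 0.164 CPM (change 2.55, SE 0.65, adjusted p = 0.00422).

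Serpina3k, a plasma serpin known for binding tissue kallikrein, was called in opposite directions. It was at 0 in all wild-type controls, 0, 0 and 0.240 CPM in DSS, 0.716, 0.542 and 0.597 CPM in DNBS and 0, 0, 0.857 and 0.522 CPM in IL-10 deficiency. It was at 0.324, 0.663 and 0.258 CPM in the libraries labelled Rag1-/- control, 0 in all 3 TCT mice and 0.0939, 0 and 0 CPM in anti-CD40. The Rag2-/- controls had 0.442, 0.612 and 0.302 CPM and the TRUC mice 0.368, 0.267, 0.0916 and 0.488 CPM. The DNBS mice lay above their controls and the TCT mice below theirs, while IL-10 mice 1 and 2 were at 0 like their controls. It was at least 2.75-fold higher in DNBS (adjusted p = 0.0259), at least 1.54-fold higher in IL-10 deficiency (adjusted p = 0.0125) and at least 1.56-fold lower in TCT (adjusted p = 0.0214). Against the wild-type controls TCT could not be compared, since both groups were at 0, and the DNBS call was lost with any 1 of the mice left out for which a value could be had (largest adjusted p = 0.0954). The TCT call was lost without control mouse 3 or TCT mouse 3 or 5 (largest adjusted p = 0.0771). The IL-10 call was lost with edgeR or DESeq2 on the 2 groups alone and with a replicate block. The median of Serpina3k was 0.302 CPM in the 13 libraries with H2-Ea-ps transcripts and 0 in the other 16. Strain and model cannot be told apart for this gene in TCT.

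Among the remaining clade A serpins, Serpina10, which encodes the protein Z-dependent inhibitor of coagulation factor Xa, was higher in 4 models. It was at 0.228, 0.133 and 0.0820 CPM in the wild-type controls against 3.45, 2.18, 9.69 and 12.5 CPM in IL-10 deficiency, a ratio of 46.4 (exact counting interval 21.1 to 128, adjusted p = 2.92e-05). In TRUC it was 1.55, 2.76, 0.916 and 0.407 CPM against 0, 0.153 and 0.226 CPM, a ratio of 10.5 (4.28 to 33.4, adjusted p = 0.00853). In TCT it was 9.34, 4.01 and 10.9 CPM and in anti-CD40 4.69, 4.80 and 2.80 CPM, against 0.567, 0.0736 and 0.258 CPM (changes 4.73 and 3.75, adjusted p = 1.198e-04 and 0.00301). None of these 4 groups overlapped its controls. DSS mice had 0.566 to 1.28 CPM and DNBS mice 0.179 to 1.62 CPM, and neither was called.

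The genes of alpha1-antitrypsin, Serpina1b and Serpina1e, were low. Serpina1b was called in no comparison with the labelled controls, but against the wild-type controls it was higher in TCT (change 2.76, adjusted p = 0.00702). There TCT mice 1, 3 and 5 had 21.2, 1.03 and 2.59 CPM against 1.22, 1.26 and 1.15 CPM. TCT mouse 3 lay below all 3 controls, so the groups overlapped. The highest values of Serpina1b were 21.2 CPM in TCT mouse 1 and 4.89 CPM in IL-10 mouse 3, and 29.5% of its exon windows occur elsewhere in the transcripts. Serpina1e was at 0 in all libraries labelled Rag1-/- control and at 0.786, 0.256 and 0.0926 CPM in TCT, at least 1.57-fold higher (adjusted p = 0.0247). Against the wild-type controls, at 1.22, 1.66 and 2.21 CPM, the TCT libraries were lower (change -2.12, adjusted p = 0.0357), the only serpin call that turned with the choice of controls. Over all libraries Serpina1e was at 0 in 11 of the 13 that held H2-Ea-ps transcripts and above 0 in all 16 that did not, and 34.6% of its windows occur elsewhere. The TCT call was also lost when any control or TCT mouse 1 was left out (largest adjusted p = 0.113), and strain and model cannot be told apart for this gene in TCT.

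**Figure D3:**
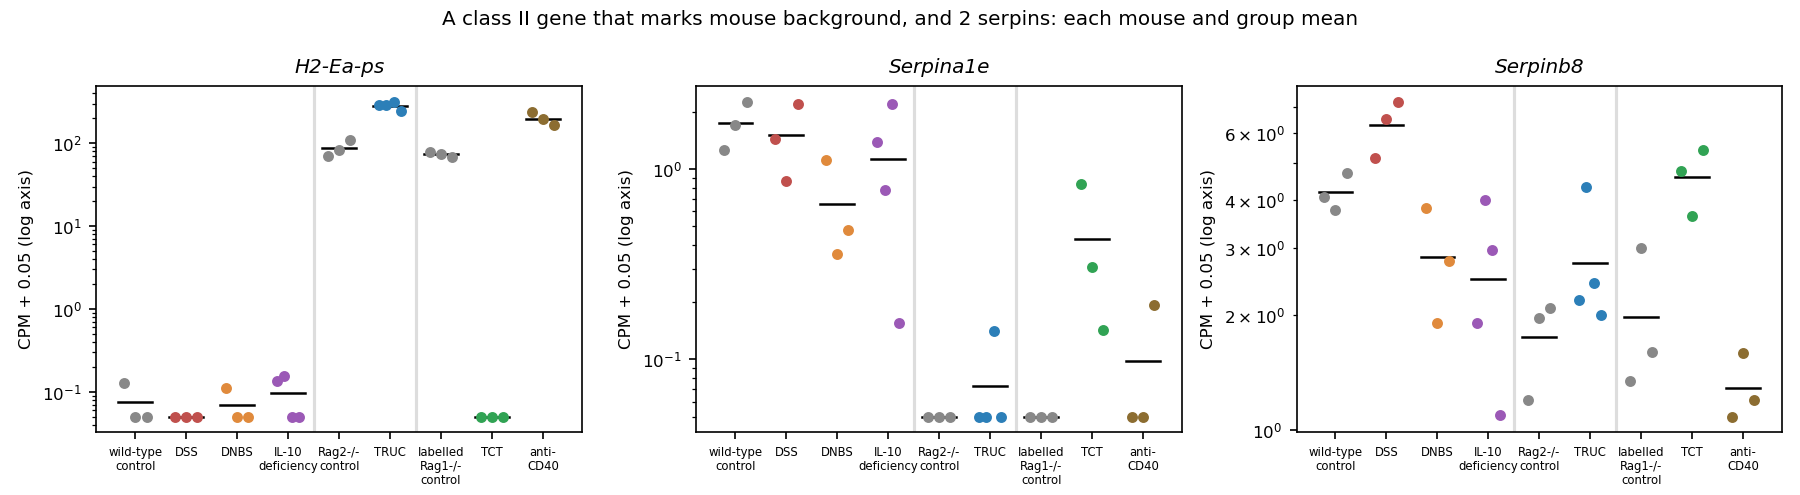
CPM (plus 0.05, log axis) of H2-Ea-ps, Serpina1e and Serpinb8 in each of the 29 libraries by group. The 13 libraries with H2-Ea-ps at 67.7 CPM or more had Serpina1e at 0.143 CPM or less, and the TCT libraries lack H2-Ea-ps like the wild-type group, with Serpina1e at 0.0926 to 0.786 CPM, between their labelled controls at 0 and the wild-type controls at 1.22 to 2.21 CPM.

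Clade B contained the most abundant serpin. Serpinb1a, the mouse counterpart of the human inhibitor of neutrophil elastase, cathepsin G and proteinase 3, had a mean level of 302 CPM per kilobase over all 29 mice, ahead of Serping1 at 73.7 and Serpinb6a at 66.7 CPM per kilobase. Its level was 460.4, 480.1 and 516 CPM in the wild-type controls and 799, 1136, 797 and 1099 CPM in IL-10 deficiency (change 0.98, SE 0.17, adjusted p = 5.58e-05). In the Rag2-/- controls it was 582, 659 and 634 CPM and in TRUC 998, 995, 1021 and 838 CPM (change 0.62, SE 0.17, adjusted p = 0.00401). All mice of both models lay above all their controls. The changes of 0.55 in TCT and 0.59 in anti-CD40 (adjusted p = 0.0203 and 0.0196) were each lost when either of 2 mice was left out, with a largest adjusted p of 0.109 and 0.119, and against the Rag2-/- controls the anti-CD40 change was 0.22 (adjusted p = 0.386). The changes of 0.39 in DSS and 0.03 in DNBS did not pass the threshold (adjusted p = 0.0888 and 0.938).

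Its paralogue Serpinb1c was at 0 to 2.14 CPM. It was called lower in TCT, at 0.175, 0.0854 and 0.370 CPM against 0.486, 2.14 and 1.55 CPM (change -2.70, SE 0.70, adjusted p = 0.00496), and against the wild-type controls the change was -1.55 (adjusted p = 0.124). In DNBS it was 0.179, 0 and 0.0852 CPM against 0.533, 0.532 and 0.820 CPM, without overlap, with a change of -2.59 that missed the threshold (adjusted p = 0.0608) and of -3.64 that passed it without DNBS mouse 11 (adjusted p = 0.0396). Serpinb9, the mouse counterpart of the human granzyme B inhibitor of cytotoxic cells, was higher in 4 models. It was at 16.1, 16.7 and 14.4 CPM in the wild-type controls, 30.9, 29.7 and 97.4 CPM in DSS and 36.7, 31.4, 30.5 and 24.2 CPM in IL-10 deficiency. It was at 10.2, 10.97 and 10.4 CPM in the libraries labelled Rag1-/- control, 33.4, 28.7 and 45.9 CPM in TCT and 29.7, 28.9 and 21.7 CPM in anti-CD40. No mouse of these models overlapped its controls, and the changes were 1.74 (SE 0.33), 0.96 (SE 0.31), 1.77 (SE 0.34) and 1.34 (SE 0.34), with adjusted p from 2.85e-04 to 0.0122. Without DSS mouse 8 the DSS change was 0.94 (adjusted p = 0.00699). Against the Rag2-/- controls, at 15.04, 17.4 and 17.8 CPM, the anti-CD40 change was 0.67 (adjusted p = 0.133).

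Serpinb5, or maspin, an epithelial serpin that does not inhibit proteases, was higher in TRUC, IL-10 deficiency, TCT and anti-CD40. It was at 91.1, 84.4 and 91.7 CPM in the Rag2-/- controls and 188, 188, 208 and 169.7 CPM in TRUC (change 1.08, SE 0.19, adjusted p = 1.06e-04), and at 81.6, 78.5 and 69.2 CPM in the wild-type controls and 151, 171, 97.6 and 109.6 CPM in IL-10 deficiency (change 0.79, SE 0.19, adjusted p = 0.00133). No mouse of these models overlapped its controls. The changes in TCT and anti-CD40 were 0.58 and 0.60 (adjusted p = 0.0305 and 0.0347), and each was lost when any of 4 mice was left out. Against the Rag2-/- controls the anti-CD40 change was 0.36 (adjusted p = 0.185), and against the wild-type controls the TCT change was 0.57 (adjusted p = 0.0337). In DNBS the change was 0.41 (unadjusted p = 0.0482 by edgeR, adjusted p = 0.201).

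Serpinb11, Serpinb2 and Serpinb3a were each high in few groups or mice. Serpinb11 was at 17.5, 29.2, 16.4 and 22.6 CPM in TRUC and 0 in all Rag2-/- controls, at least 89.1-fold higher (adjusted p = 2.06e-04). It was at 10.4, 21.9, 4.37 and 0 CPM in IL-10 deficiency against 0, 0.0666 and 0 CPM, a ratio of 364 that rests on 1 control count (exact counting interval 64.9 to 14400, adjusted p = 6.60e-04), and IL-10 mouse 4 did not differ from the controls. In TCT it was 3.67, 2.22 and 1.39 CPM against 0, at least 10.1-fold higher (adjusted p = 0.0153), and in DSS it was 0 in every mouse. In TRUC the squamous keratin Krt13 was also higher, at 22.9 to 45.9 CPM against 0.918 to 2.49 CPM. Of the 9 squamous markers 2 were higher and 1 lower, against 22.4% and 23.4% of all genes. The markers summed to 38.9 to 67.3 CPM in TRUC against 19.2 to 22.7 CPM. The part of squamous epithelium in the Serpinb11 value was not tested.

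Serpinb2, or PAI-2, an inhibitor of the urokinase plasminogen activator made by activated macrophages, was called in DSS alone. It was at 0.189, 0.957 and 32.9 CPM against 0.0762, 0.0666 and 0.164 CPM, a ratio of 100.5 (39.0 to 371, adjusted p = 7.05e-04). Mouse 8 carried nearly all of it, and without that mouse the change was 2.39 (adjusted p = 0.113). Serpinb3a, related to the human squamous cell carcinoma antigens, was at 8.83 CPM in DNBS mouse 11 and at 0 in the other 28 libraries. The same mouse had Krt13 at 169 CPM and Krt14 at 184 CPM, where the wild-type controls had at most 0.574 and 4.93 CPM, and the 9 squamous markers summed to 532 CPM in it, the highest of all libraries. The DNBS change of Serpinb3a did not pass the threshold (adjusted p = 0.199).

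**Figure D4:**
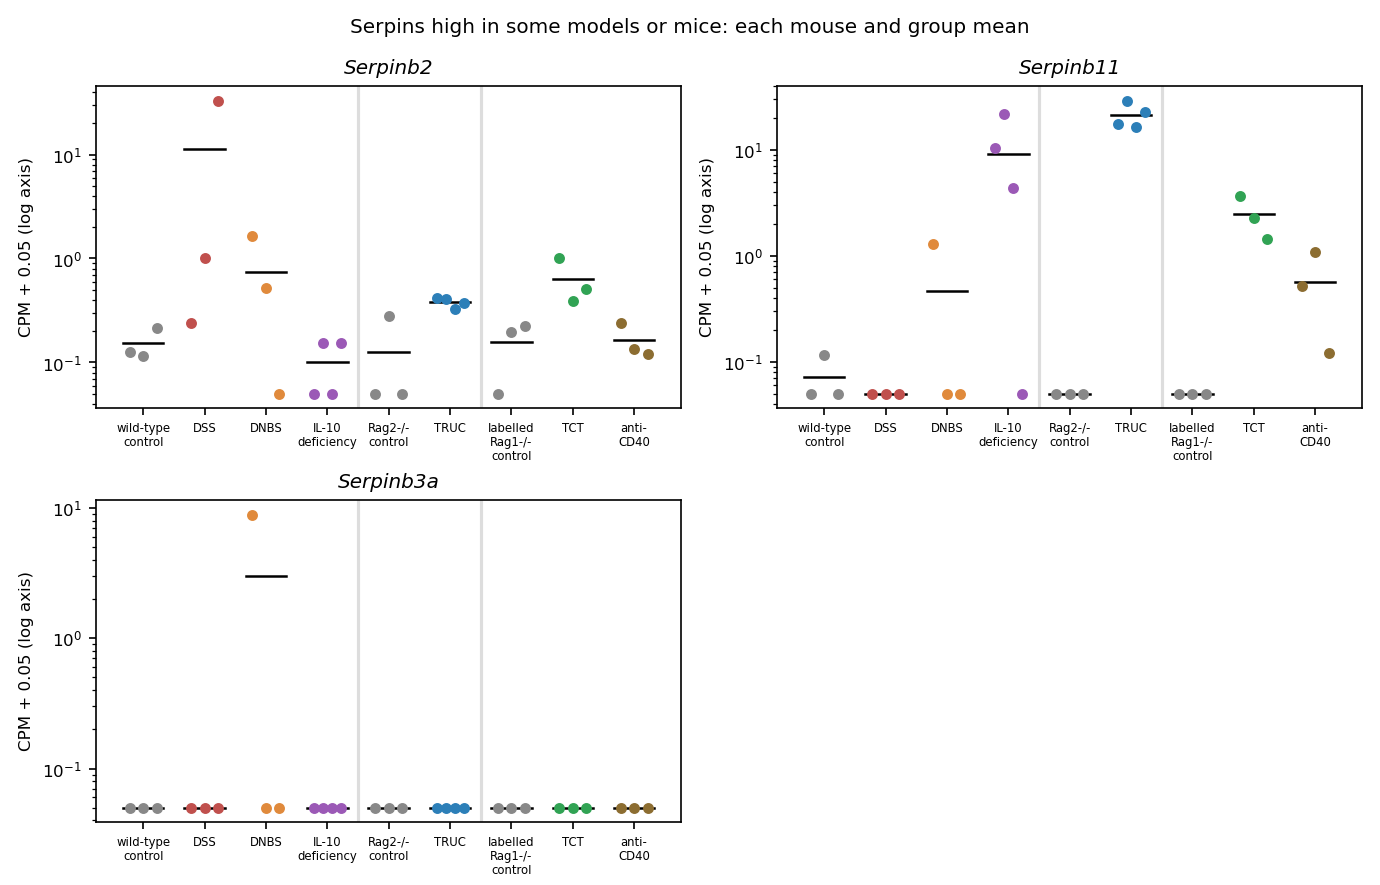
CPM of Serpinb2, Serpinb11 and Serpinb3a in each mouse by group, on log axes. The axis is CPM plus 0.05, lines are group means, Serpinb11 is highest in TRUC and 3 of 4 IL-10 mice, and Serpinb2 and Serpinb3a are each high in 1 mouse.

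Serpinb8, which inhibits the convertase furin in humans, was called in TCT (change 1.23, SE 0.38, adjusted p = 0.0177). Against the wild-type controls this change was 0.14 (adjusted p = 0.804), and it was also lost without TCT mouse 5 or without control mouse 2 or 4 (largest adjusted p = 0.0843). Its median level was 1.91 CPM in the 13 libraries with H2-Ea-ps transcripts and 3.85 CPM in the other 16, and strain and model cannot be told apart here either.

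Serpine2, or protease nexin-1, an inhibitor of thrombin and urokinase, was called in opposite directions. It was at 19.6, 19.7 and 17.8 CPM in the wild-type controls, 27.7, 44.2 and 43.0 CPM in DSS, 22.6, 27.7 and 13.2 CPM in DNBS and 6.32, 9.24, 6.95 and 18.4 CPM in IL-10 deficiency. The Rag2-/- controls had 10.97, 8.64 and 10.7 CPM and TRUC 13.1, 13.7, 9.98 and 7.24 CPM. The libraries labelled Rag1-/- control had 6.56, 9.79 and 7.40 CPM, TCT 13.004, 11.8 and 11.9 CPM and anti-CD40 4.32, 5.57 and 8.32 CPM. DSS mice lay above the controls, and 3 of the 4 IL-10 mice lay below them, mouse 4 being inside their range. The change was 1.01 in DSS (SE 0.32, adjusted p = 0.0169) and -0.91 in IL-10 deficiency (SE 0.30, adjusted p = 0.0147). Leaving out DSS mouse 6 or 8 or wild-type mouse 4 ended the DSS call (largest adjusted p = 0.0625), and leaving out IL-10 mouse 1 or 3 ended the IL-10 call (largest adjusted p = 0.0552). In IL-10 deficiency 4 of the 5 fibroblast markers were also lower, against 26.1% of all genes. The part of fibroblasts in this result was not tested.

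Serping1, the C1 inhibitor of complement and of the contact system, was higher in 3 models. It was at 180.4, 197, 169 and 146 CPM in TRUC against 87.6, 84.1 and 115 CPM, at 237, 255 and 591 CPM in DSS against 153, 157 and 129.7 CPM, and at 254, 206 and 308 CPM in TCT against 68.6, 106 and 81.7 CPM. No mouse of these models overlapped its controls, and the changes were 0.85 (SE 0.25, adjusted p = 0.00805), 1.30 (SE 0.27, adjusted p = 6.83e-04) and 1.58 (SE 0.27, adjusted p = 8.87e-05). Against the wild-type controls the TCT change was 0.80 and kept its call. In DNBS the change was 0.01 and in IL-10 deficiency 0.11, and in anti-CD40 it was 0.52 (adjusted p = 0.163).

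Serpinh1, or Hsp47, a collagen chaperone that inhibits no protease, and Serpinf1, or PEDF, a secreted factor that is no inhibitor either, were both lower in IL-10 deficiency. Serpinh1 was at 89.7, 105, 94.2 and 83.1 CPM against 201, 213 and 144 CPM (change -0.995, SE 0.23, adjusted p = 0.00105). Serpinf1 was at 6.91, 8.83, 7.55 and 7.11 CPM against 14.9, 13.4 and 11.8 CPM (change -0.82, SE 0.20, adjusted p = 0.00180). All 4 mice lay below all controls for both genes. In the same comparison 4 of 5 fibroblast markers and 3 of 4 smooth muscle markers were lower, against 26.1% of all genes. The part of these cells was not tested. Serpinh1 had a change of 0.63 in DSS (adjusted p = 0.0523) and 0.47 in DNBS (adjusted p = 0.243). In DNBS 5 of the 7 collagen genes on the list were higher, against 3.95% of all genes.

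Serpini1, or neuroserpin, Serpinf2, or alpha2-antiplasmin, and Serpinc1, or antithrombin, were called in no comparison. Serpini1 lay between 2.63 and 8.87 CPM in all mice, with changes from -0.51 to 0.43. Serpinf2 and Serpinc1 never exceeded 0.799 and 1.33 CPM, and 33.6% of the exon windows of Serpinc1 occur elsewhere, among them in the overlapping gene Zbtb37.

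The summed level of all serpins, in CPM per kilobase of exon, was higher in each model than in its controls without overlap. It was 465 ± 12.4 (SD, n = 3) in the wild-type controls, 1014 ± 410 in DSS, 592 ± 62.4 in DNBS and 774 ± 89.5 (n = 4) in IL-10 deficiency. It was 489 ± 27.3 in the Rag2-/- controls and 767 ± 60.4 (n = 4) in TRUC, and 409 ± 30.8 in the libraries labelled Rag1-/- control, 751 ± 76.6 in TCT and 569 ± 60.5 in anti-CD40. Serpinb1a made the largest mean share of this sum in every group, from 29.1% in DSS to 55.5% in the Rag2-/- controls, as means of the shares of single mice. In DSS Serpina3n made 26.4%, where it made 2.18% in the wild-type controls, and in DSS mouse 8 it made the larger share of the pair. The mean levels of the pair in DSS were 279 and 277 CPM per kilobase. The sum is a description with no test.

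**Figure D5:**
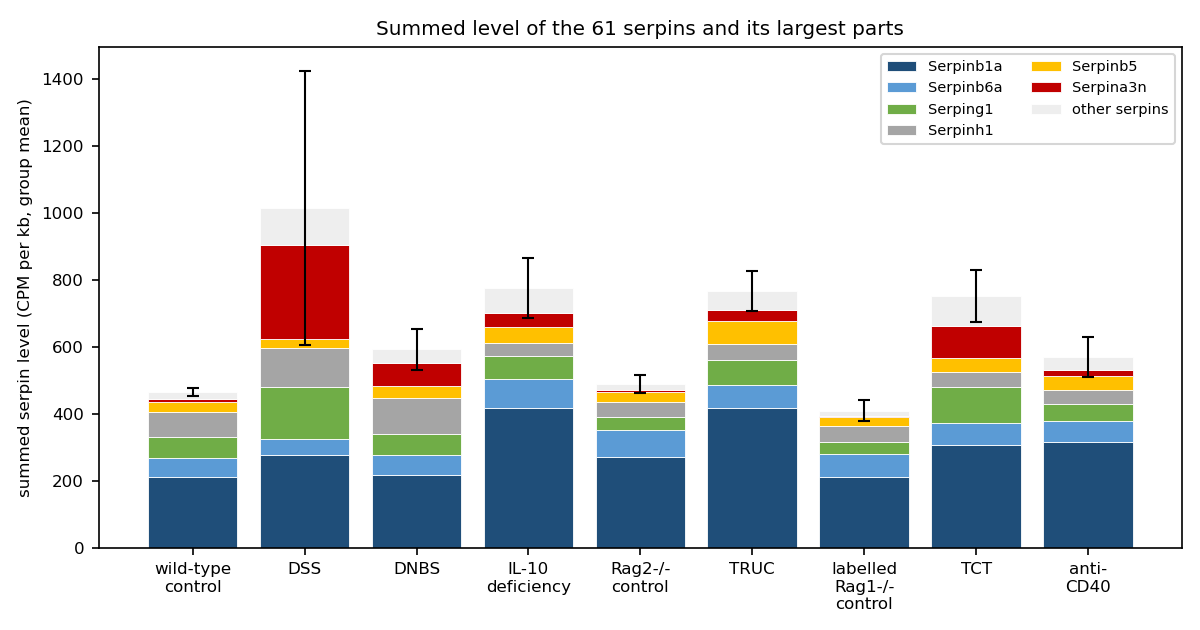
Summed serpin level in CPM per kilobase of exon, by group, as stacked bars of the group means of the largest members, with error bars for the SD of the sum over mice. Serpinb1a is the largest bar segment outside DSS, where Serpina3n (mean 279 CPM per kilobase) and Serpinb1a (277) are about equal.

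The proteases that serpins inhibit were read from lists in the same fit. Of the granzymes and perforin of cytotoxic lymphocytes, 4, 4, 1, 4, 5 and 5 of 6 were higher in TRUC, DSS, DNBS, IL-10 deficiency, TCT and anti-CD40 with median changes of 4.05, 4.02, 2.79, 5.39, 5.42 and 4.86. Gzmb, the target of Serpina3n and Serpinb9, was higher in all 6, at 34.5 to 44.3 CPM in IL-10 deficiency against 0.266 to 0.410 CPM. Of the neutrophil serine proteases, only Prtn3 was tested, and Elane and Ctsg were at or near 0 in all libraries, with at most 9 and 6 counts. Neutrophil markers were high, with 7, 7, 6, 6, 6 and 5 of 7 higher and sums of 1536 to 2100.0 CPM in TRUC against 211 to 338 CPM, and their part in the serpin values was not tested.

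Of the 8 cathepsins 3, 4, 5, 7 and 2 were higher in TRUC, DSS, the IL-10 group, TCT and anti-CD40, with median changes of 0.16, 0.71, 0.54, 0.75 and 0.13 (0.26 in DNBS), and 2 were lower in the IL-10 group and 1 in anti-CD40. Ctsc, which activates granule serine proteases, was higher in all models but DNBS (changes 0.97 to 1.79). Of the 3 tested genes of plasminogen activation 2, 3, 1, 1 and 2 were higher in TRUC, DSS, DNBS, the IL-10 group and TCT, and 1, Plau, which encodes urokinase, was lower in TCT and in anti-CD40 (changes -1.21 and -1.52). Plaur, the urokinase receptor, was higher in all models but anti-CD40, at 44.8 to 319.9 CPM in DSS against 5.52 to 7.38 CPM. Of 21 inhibitors of other families 10, 11, 5, 13, 11 and 3 were higher in the 6 models, and 5, 2, 3, 1 and 2 were lower in all but DNBS, with median changes of 0.75, 0.59, 0.80, 1.18, 1.32 and 0.39. The lower counts in TRUC and anti-CD40 and the higher count in anti-CD40 lay near the shares of all genes given above. Slpi, an inhibitor of neutrophil elastase, was higher in all 6 (changes 4.16 to 5.87), as were Wfdc17 and Wfdc18. Klk1, tissue kallikrein, was lower in all 6, by 2.79 on the log2 scale in TCT, 2.43 in TRUC and 0.86 in DNBS at the least.

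The change differed between the 6 models for 23 of the 29 serpins by the F test of equal contrasts. The exceptions were Serpina3g (adjusted p = 0.0707), Serpini1 (0.0516), Serpina1b (0.0836), Serpinb3a (0.210), Serpinf2 (0.319) and Serpinc1 (0.619). The share of 23 of 29 stands beside the 60.5% of all genes given above. Among the 23 are Serpina3f, Serpina3i, Serpina3m, Serpina10, Serpinb2 and Serpinb11, which passed the count limit through model mice in which they were high. The share describes the tested genes and is no evidence for the family as a whole. For Serpina3g a p over the threshold does not show that the models were alike.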

How the data were processed

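Colon RNA of 29 mice was sequenced by the authors from poly-A libraries, from RNA with a RIN above 7. The authors deposited raw counts per Ensembl gene for all mice in 1 table, and per the labels the submitters' processing notes name Trimmomatic, HISAT2, HTSeq and GRCm38, with no versions; strand handling is not given in the sources used here. Spike-in entries, 92 in number, held no count. Symbols and biotypes came from GENCODE M21 (54409 of 54532 genes matched). Groups came from the sample labels. Genes with a mean of at least 3 counts over the 29 mice (18616) were fitted with edgeR 4.0.16 (R 4.3.3, TMM scaling, quasi-likelihood test, all 9 groups, no block, Benjamini-Hochberg adjustment, threshold 0.05), and members were read from that fit. The fit was tested on simulated data. No pair of mice agreed within sampling noise (lowest chi-square per degree of freedom 3.42 over 33 same-group pairs).

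Against a group at 0, a fold is a lower bound from 3 counts per library; with 1 to 3 counts a ratio is given with its exact 95% interval, and both cover counting error only. Alternatives were RLE and upper quartile scaling, no filter and filterByExpr, fits on 2 groups by edgeR or DESeq2 1.42.0, a replicate block, other controls and leaving out each mouse. Genes named with values were those called the same way in at least 5 comparisons, the 10 with the largest called change in each comparison, the highest of each clade per kilobase, and the tested members of clades with 3 or fewer. Members and lists were chosen with earlier results of these data known. The design planned protein sequences, and coding sequences of the loops are shown in their place. The 32 untested serpins include Serpina1a, Serpina1c, Serpina1d, Serpinb3b, Serpinb9b, Serpind1 and Serpini2. Values of 1 tested serpin are not reported here, and it is included in the counts. Another 7 serpin-named genes that are not protein-coding, among them Serpina3h, were left out.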

Additional observations from a re-analysis of the deposited data

Results flagged for a closer look

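Within groups of 4 mice, 5 of 58 serpin groups held 1 mouse far from the others, where chance flags about 1 in 20. The measure is the gap to the nearest mouse over the whole range of the group. It was 0.836 for Serpina1b in IL-10 deficiency, where mouse 3 had 4.89 CPM and the next 1.67 CPM, and 0.921 for Serpinb6a in the same group, where mouse 4 had 633 CPM and the next 438 CPM. In TRUC it was 1 for Serpina1e (mouse 4 at 0.0916 CPM, a single count, the others at 0, so that the measure could take no other value), 0.856 for Serpinb1a (mouse 5 lowest at 838 CPM, the next 995 CPM) and 0.939 for Serpinf2 (mouse 5 at 0.732 CPM, the next 0.183 CPM).

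The size of the change differed between the 6 models for 23 of 29 tested serpins by edgeR's F test of equal contrasts, which called 60.5% of all genes, and the values of 22 follow. As said above, some of them passed the count limit only through model mice in which they were high. In clade A the adjusted p was 1.62e-06 for Serpina3n, 7.38e-05 for Serpina3m, 9.89e-05 for Serpina9, 0.000469 for Serpina3c, 0.000778 for Serpina10, 0.00205 for Serpina3i, 0.00241 for Serpina3k, 0.0151 for Serpina3f and 0.0417 for Serpina1e. In clade B it was 4.12e-05 for Serpinb6a, 0.000394 for Serpinb8, 0.000498 for Serpinb2, 0.00141 for Serpinb1a, 0.00153 for Serpinb11, 0.00208 for Serpinb1c, 0.00887 for Serpinb9, 0.00898 for Serpinb5 and 0.0276 for Serpinb6b. In the other clades it was 8.76e-05 for Serpinh1, 0.000135 for Serping1, 0.000207 for Serpine2 and 0.00033 for Serpinf1. For Serpina1e, Serpinb8, Serpina3k and Serpinb1c the median also differed between the libraries with and without H2-Ea-ps transcripts. The part of strain in the test was not tested for any serpin.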

How the results depend on the processing

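Of the 73 serpin calls, 54 were kept in every alternative run and 19 were lost in at least 1, of which 6 were lost only when a mouse was left out. The call that turned was Serpina1e in TCT, at -2.12 against the wild-type controls. Serpins called lower in TRUC were 2 with upper quartile scaling, with edgeR on the 2 groups and with DESeq2. In DNBS 3 were higher with edgeR on the 2 groups, and DESeq2 called 27 genes of the protease and marker lists. In anti-CD40 5 were higher and 2 lower against the Rag2-/- controls, and 2 were lower with edgeR on the 2 groups. Leaving out 1 mouse gave 1 to 5 higher and 0 to 1 lower serpins in DNBS, with 6 to 19 list genes, and 5 to 8 higher and 1 to 2 lower serpins in anti-CD40 (5 higher without anti-CD40 mouse 7 or control mouse 3, 2 lower without anti-CD40 mouse 8). In DNBS 1 was lower without mouse 11. The other counts stayed within 1.5 times. For 28 of the 73 calls, leaving out 1 mouse moved the fold by over 1.5 times. The cause of these shifts was not tested.

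TRUC (2 and 4) and IL-10 mice (1, 2 and 4) shared mouse numbers with their controls, with correlations of deviations from -0.0933 to 0.0944. These values show no sign of pairing, but so few cannot tell whether such mice shared a litter, cage or day. With a replicate block on the 2 groups, 12 serpins were higher and 1 lower in TRUC with all 11 calls kept, and 12 higher and 3 lower in IL-10 deficiency, with Serpine2 and Serpina3k lost. Depth limits the genes under about 0.3 CPM, where 3 counts are the floor.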
